A study of Homo sapiens with 6 samples.

Results

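The 10 genes followed here break down, salvage or newly make uridine and its nucleotides: UPP1, TYMP, UCK1, UCK2, UCKL1, CDA, CAD, DHODH, UMPS and CTPS1. They are the rows of the deposited count tables whose NCBI Gene ID carries one of these 10 symbols, and all 10 were found among 28395 gene IDs. The libraries were made from the colorectal cancer line HCT116, long established from a human tumour, given 50 nM TR-107 for 24 h (3 libraries) or the vehicle, 0.1% DMSO, for 24 h (3 libraries). ClpP, a protease of the mitochondrial matrix, is the target that TR-107 activates. Polyadenylated RNA was sequenced and read pairs were counted per gene. The labels call the libraries biological replicates without saying how cultures were separated, so p-values cover only the spread among these libraries, which may be technical, and less RNA per cell and fewer cells carrying it cannot be told apart in bulk RNA.

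Libraries held 17264039 to 22243758 gene counts in TR-107 and 18344471 to 23708135 in DMSO. All 5 epithelial markers were present in every library, with a summed level of 5639 to 5774 CPM (counts scaled to the library total times its TMM factor) in TR-107 and 5135 to 5178 CPM in DMSO. Of 4 intestinal markers, CDX1 was at 0 in all libraries and only CDX2 had counts in all of them. The leukocyte markers PTPRC and CD3E, the fibroblast marker DCN and the endothelial marker CDH5 were at 0 in all libraries, while 4 fibroblast markers summed to 16.2 to 18.3 CPM in TR-107 and 13.3 to 16.5 CPM in DMSO, nearly all from COL1A1.

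Cells obtain uridine nucleotides along a pair of routes. In the de novo route CAD makes dihydroorotate in the cytosol, DHODH oxidises it on the inner mitochondrial membrane and hands the electrons to ubiquinone, and UMPS turns the resulting orotate into UMP; because of the DHODH step, cells without a working respiratory chain are known to need added uridine. In the salvage route, uridine taken up from outside or released from RNA is phosphorylated by uridine-cytidine kinases. UPP1 competes with those kinases for the same substrate and splits uridine into uracil and ribose 1-phosphate, a sugar phosphate that can enter the pentose phosphate pathway and glycolysis.

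After TR-107 the gene of the splitting enzyme was far higher. Of the 10 genes, 6 were called lower (60%, against 28.6% of all genes tested): UCK1, UCK2, CAD, DHODH, UMPS and CTPS1. CDA, whose enzyme feeds cytidine into the uridine pool, was called higher. The calls of CDA and DHODH were lost under some of the settings given below. UPP1 was 18.9-fold higher than in DMSO, TYMP and CDA were 1.31-fold and 1.32-fold higher, and CTPS1, UMPS, UCK1, UCK2, DHODH and CAD were 1.65-fold to 1.17-fold lower. UCKL1 was not called in either direction. A gene is said to be called, or to rise or fall, when its Benjamini-Hochberg adjusted p over all tested genes was under 0.05 in edgeR's quasi-likelihood test. By that rule 3 of the 10 were called higher and 6 lower, where among all 13767 genes tested 29.2% were called higher and 28.6% lower, 57.8% in all. The 10 were chosen by name with results of this comparison in view, UPP1 being selected on its fold change here, so their calls and fold changes are a description and no p-values are given for them.

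**Figure D1:**
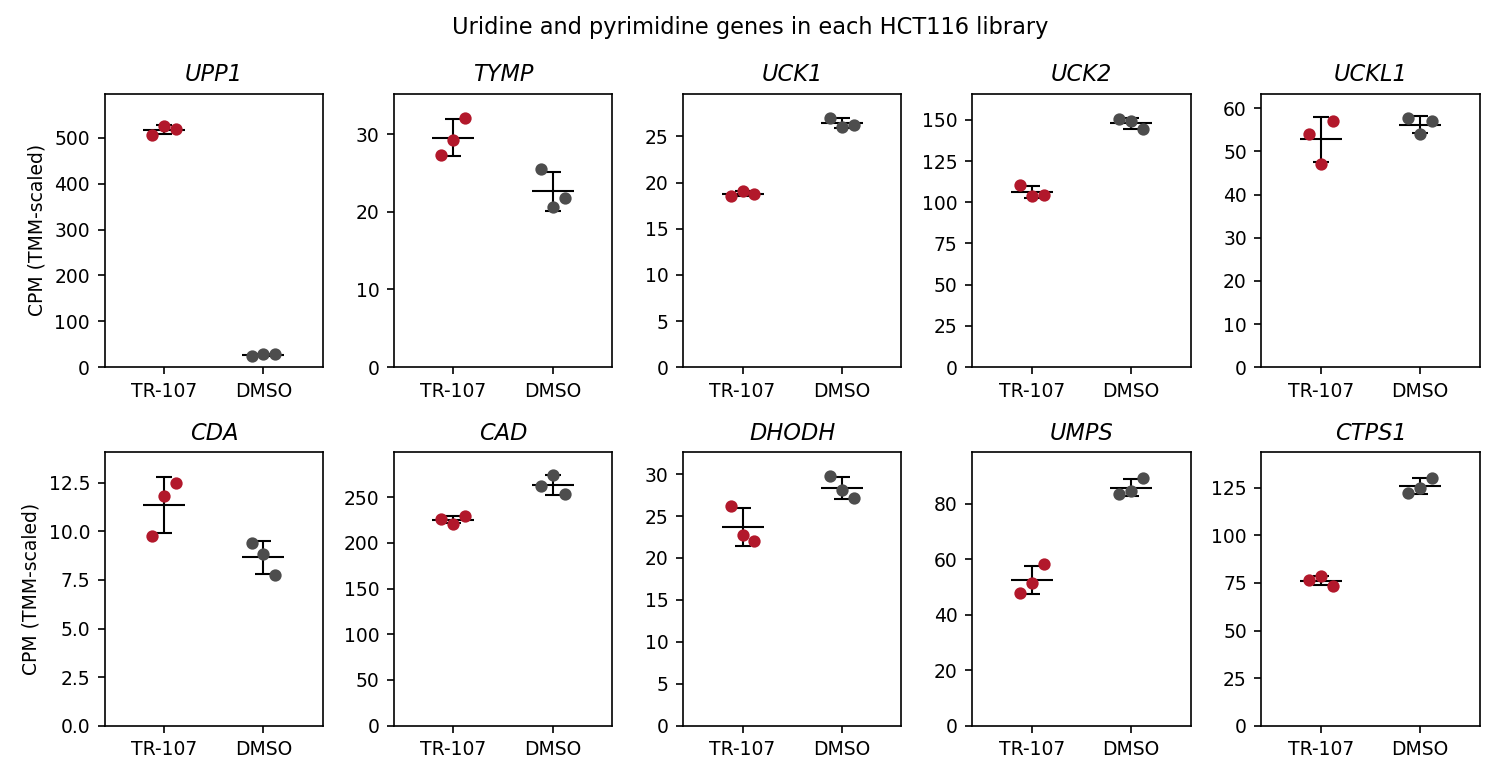
CPM of each gene in each library (vertical axes start at 0 and differ between panels), with 3 TR-107 libraries left of 3 DMSO libraries; the bars are the mean and SD. The groups do not overlap in 9 of the 10 panels, UCKL1 being the exception.

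The plot of CPM by library shows every value behind these statements. A log2 fold change is TR-107 over DMSO with the standard error (SE) of the fit. The 3 TR-107 libraries lay on one side of the 3 DMSO libraries for 9 of the 10 genes, and for 62.4% of all genes tested.

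UPP1 (gene ID 7378, GRCh38 chromosome 7, 48088704 to 48108736, plus strand) encodes uridine phosphorylase. It had 507, 527 and 520 CPM in the TR-107 libraries, against 24.7, 28.0 and 29.1 CPM in the DMSO libraries. These values rest on 8677 to 11149 counts per TR-107 library and 462 to 703 per DMSO library. The log2 fold change was 4.24 ± 0.05 (SE), the 23rd highest of 13767. The coefficient of variation was 1.93% in TR-107 and 8.30% in DMSO, below the median gene's in TR-107 (5.64%) and above it in DMSO (4.92%) among genes between 10 and 1000 mean CPM. No other annotated gene overlaps its span. UPP2, which encodes a second uridine phosphorylase, had a count of 0 in all 6 libraries.

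RefSeq lists more than one start for UPP1, and the 250 bases before an upstream and a downstream start are shown because this is the gene with the highest fold change of the 10, together with those before UMPS and CTPS1, the genes with the lowest (GRCh38.p14, plus strand, 5′ to 3′). Capitals mark a match to one of the motifs named after the sequences.
UPP1, upstream start, chr7:48088454-48088703: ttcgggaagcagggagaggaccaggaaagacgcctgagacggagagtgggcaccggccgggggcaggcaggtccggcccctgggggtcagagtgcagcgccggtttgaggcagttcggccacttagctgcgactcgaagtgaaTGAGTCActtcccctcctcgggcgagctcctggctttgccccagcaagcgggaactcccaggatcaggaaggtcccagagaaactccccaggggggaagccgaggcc
UPP1, downstream start, chr7:48089004-48089253: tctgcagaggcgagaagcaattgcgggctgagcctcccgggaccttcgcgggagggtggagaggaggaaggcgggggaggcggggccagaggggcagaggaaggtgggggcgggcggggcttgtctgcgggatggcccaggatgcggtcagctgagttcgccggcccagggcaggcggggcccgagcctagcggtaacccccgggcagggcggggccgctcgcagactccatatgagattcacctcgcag
UMPS, chr3:124730202-124730451: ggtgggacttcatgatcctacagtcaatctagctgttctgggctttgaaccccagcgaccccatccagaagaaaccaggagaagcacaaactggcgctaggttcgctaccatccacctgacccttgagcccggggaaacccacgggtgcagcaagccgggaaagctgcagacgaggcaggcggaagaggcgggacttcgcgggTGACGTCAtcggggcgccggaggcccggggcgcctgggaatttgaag
CTPS1, first start, chr1:40979446-40979695: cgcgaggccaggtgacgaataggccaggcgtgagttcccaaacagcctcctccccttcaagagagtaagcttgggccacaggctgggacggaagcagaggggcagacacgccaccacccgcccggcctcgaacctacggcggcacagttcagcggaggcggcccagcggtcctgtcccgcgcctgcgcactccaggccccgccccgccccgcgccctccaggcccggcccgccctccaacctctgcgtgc
Both strands of these windows were searched for TGATGNAA (the C/EBP-ATF response element bound by ATF4), TGANTCA (AP-1), TGACGTCA (cyclic AMP response element), CACGTG (E-box) and CCAAT, and no matches of different motifs overlapped. The upstream UPP1 window holds TGAGTCA, which begins 107 bases before the start, and 6.57% of all 35116 promoter windows of this length hold TGANTCA. The UMPS window holds TGACGTCA, beginning 47 bases before the start, a motif found in 1.65% of all windows. The downstream UPP1 window and the first CTPS1 window hold none of these motifs, while the window before a second CTPS1 start, not shown, holds a match to TGANTCA that begins 14 bases before that start. TGATGNAA, found in 3.14% of all windows, is in no window of the 10 genes. G and C made up 66.0% and 71.6% of the upstream and downstream UPP1 windows, 62.0% of the UMPS window and 72.0% of the first CTPS1 window, where the median of all windows was 58.0%.

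TYMP (gene ID 1890, chromosome 22, 50525752 to 50530085) encodes thymidine phosphorylase, which splits thymidine and deoxyuridine as UPP1 splits uridine. It had 27.3, 29.2 and 32.0 CPM in TR-107, against 25.5, 20.7 and 21.8 CPM in DMSO. The groups did not overlap, and the log2 fold change was 0.39 ± 0.10 (SE). Of the TYMP exon bases in GENCODE 29, 20.7% are shared with SCO2 or ODF3B, so its count is less certain. SCO2 was at 0.0548 to 0.280 CPM in TR-107 and 0.375 to 0.992 CPM in DMSO, and the part of shared reads in the TYMP value was not tested.

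The uridine-cytidine kinases, which start salvage by making UMP and CMP, were lower or not called. UCK2 (gene ID 7371, chromosome 1, 165827614 to 165911618), the one with the most counts, had 110.5, 104 and 104 CPM in TR-107, against 150.2, 149 and 144 CPM in DMSO. Every TR-107 library lay below every DMSO library, and the log2 fold change was -0.48 ± 0.05 (SE). UCK1 (gene ID 83549, chromosome 9, 131523801 to 131531263) fell too, with 18.5, 19.1 and 18.7 CPM in TR-107, against 27.0, 26.0 and 26.3 CPM in DMSO (log2 fold change -0.49 ± 0.10, SE). UCKL1 (gene ID 54963, chromosome 20, 63939829 to 63956416), a longer kinase-like relative, had 54.1, 47.1 and 57.2 CPM in TR-107 and 57.7, 54.0 and 57.0 CPM in DMSO. Its groups overlapped and its log2 fold change was -0.09 ± 0.07 (SE). Some exon bases of UCK2 (7.56%) and UCKL1 (7.41%) are shared with other genes, TMCO1 and the antisense gene UCKL1-AS1 among them.

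CDA (gene ID 978, chromosome 1, 20589097 to 20618903) encodes cytidine deaminase, which feeds cytidine into the uridine pool. It was the gene with the fewest counts of the 10, with 9.76, 11.8 and 12.5 CPM in TR-107 (167 to 268 counts), against 9.42, 8.83 and 7.73 CPM in DMSO (176 to 202 counts). The gap between the lowest TR-107 and the highest DMSO library was narrow, and the log2 fold change was 0.40 ± 0.16 (SE). The rise of CDA was not called without TR-107 replicate 2 (log2 fold change 0.37) or 3 (0.32), without DMSO replicate 2 (0.40) or 3 (0.31), with library size alone (0.33) or under DESeq2 (0.39).

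Of 5 de novo genes 4 fell (80%, against 28.6% of all genes tested), by unequal amounts, and those 4 are the de novo genes among the 10. CAD (gene ID 790, chromosome 2, 27217369 to 27243943), the multifunctional enzyme of the first steps, had 227, 221 and 229 CPM in TR-107, against 262, 275 and 253 CPM in DMSO (log2 fold change -0.22 ± 0.04, SE). DHODH (gene ID 1723, chromosome 16, 72008744 to 72027659), the only enzyme of the route in mitochondria, had 26.2, 22.8 and 22.0 CPM in TR-107, against 29.8, 28.1 and 27.2 CPM in DMSO (log2 fold change -0.26 ± 0.10, SE). The DHODH fall was not called without TR-107 replicate 2 (-0.24) or 3 (-0.21) or without DMSO replicate 1 (-0.24), and its nearest libraries were TR-107 replicate 1 and DMSO replicate 3.

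UMPS and CTPS1, which act after DHODH, had fold changes further from 0 than CAD and DHODH, a difference between genes that was not tested. UMPS (gene ID 7372, chromosome 3, 124730452 to 124749273), which turns orotate into UMP, had 47.9, 51.4 and 58.2 CPM in TR-107, against 83.5, 84.6 and 89.2 CPM in DMSO. CTPS1 (gene ID 1503, chromosome 1, 40979696 to 41012565), which makes CTP from UTP, had 76.7, 78.6 and 73.5 CPM in TR-107, against 122, 125 and 130.3 CPM in DMSO. Neither gene's groups came near each other, and the log2 fold changes were -0.71 ± 0.07 (SE) for UMPS and -0.72 ± 0.05 (SE) for CTPS1. CTPS2, a second CTP synthase, was not called (log2 fold change -0.18 ± 0.11, SE; edgeR adjusted p = 0.175).

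**Figure D2:**
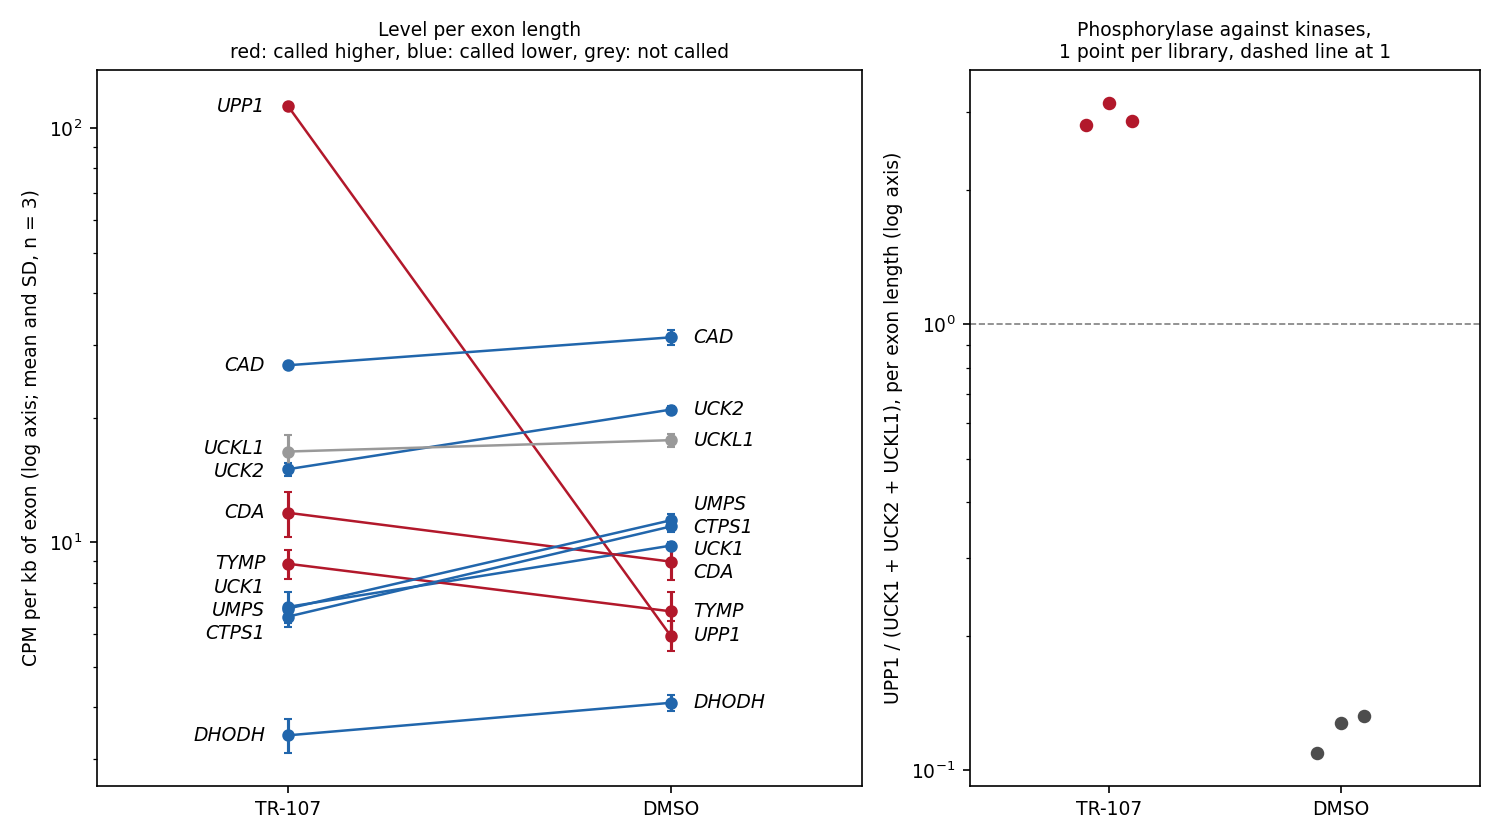
Left, mean level per kilobase of exon (CPM per kb, log axis; bars are SD, n = 3) of each gene in TR-107 and DMSO; right, the UPP1 level over the summed level of UCK1, UCK2 and UCKL1 in each library (log axis). UPP1 stands 9th of the 10 genes in DMSO and first in TR-107, and the ratio is 2.80 to 3.14 in TR-107 libraries and 0.109 to 0.132 in DMSO libraries.

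To compare genes with each other, CPM were divided by the summed length of each gene's exons in GENCODE 29, as the plot of level per exon length shows. UPP1 stood at 113 ± 2.18 CPM per kb in TR-107 and 5.95 ± 0.494 CPM per kb in DMSO (SD, n = 3). In TR-107 it came first, ahead of CAD at 26.8 ± 0.476 CPM per kb (SD, n = 3). In DMSO it came 9th, where its libraries overlapped those of TYMP (6.82 ± 0.756 CPM per kb, SD, n = 3) and lay above those of DHODH (4.10 ± 0.190 CPM per kb, SD, n = 3). Among 12882 tested genes with a length, the UPP1 level ranked 255th in TR-107 and 6060th in DMSO.

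The other genes changed places over a smaller range. In TR-107 the order of levels after UPP1 and CAD was UCKL1, UCK2, CDA, TYMP, UCK1, UMPS, CTPS1 and DHODH. In it UCKL1 and UCK2 overlapped, as did UCK1 with UMPS and UMPS with CTPS1. In DMSO the order was CAD, UCK2, UCKL1, UMPS, CTPS1, UCK1, CDA, TYMP, UPP1 and DHODH, where UMPS overlapped CTPS1, UCK1 overlapped CDA and TYMP overlapped UPP1. With the longest transcript as the length UPP1 stayed first in TR-107 but was 8th in DMSO, and CTPS1, whose many transcripts give it the longest summed exons, was 6th in TR-107 and 4th in DMSO.

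Within a library the balance of the splitting enzyme against the kinases does not depend on library size or scaling. The UPP1 level over the summed levels of UCK1, UCK2 and UCKL1 was 2.80, 3.14 and 2.86 in the TR-107 libraries, against 0.109, 0.128 and 0.132 in the DMSO libraries. UPP1 mRNA therefore exceeded the summed kinase mRNA per exon length in every TR-107 library and was below it in every DMSO library, which was also so with the longest transcript as length (3.10 to 3.50 in TR-107 and 0.122 to 0.148 in DMSO). The kinases themselves summed to 38.6 ± 1.72 CPM per kb in TR-107 and 48.4 ± 0.882 CPM per kb in DMSO (SD, n = 3), of which UCK2 made up 39.0 ± 1.57% in TR-107 and 43.2 ± 0.938% in DMSO (SD, n = 3). Against CAD, DHODH and UMPS summed, UPP1 stood at 2.98 to 3.17 in TR-107 and 0.116 to 0.139 in DMSO.

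The 5 genes with profiles nearest to that of UPP1 were DDIT4, BEST1, LINC01512, DDIT3 and CHAC1. Likeness was the root mean square difference of log2 CPM (prior count 2) over the 6 libraries, each gene centred on its DMSO mean, and it was 0.17 for DDIT4 and 0.22 for CHAC1. With only TR-107 and DMSO libraries, this measure mostly picks genes whose fold change is like that of UPP1. Whether these genes share regulation with UPP1 was not tested. DDIT4 was the one with CPM near those of UPP1, at 557, 601 and 547 CPM in TR-107, against 27.0, 24.1 and 27.8 CPM in DMSO. Its summed exons have 2058 bases, against 4577 for UPP1, so its level per exon length is higher. BEST1 (73 to 105 counts per TR-107 library and 3 to 5 per DMSO library) and LINC01512 (28 to 46 counts per TR-107 library and 0 in every DMSO library) are so low that the prior count sets much of their likeness.

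**Figure D3:**
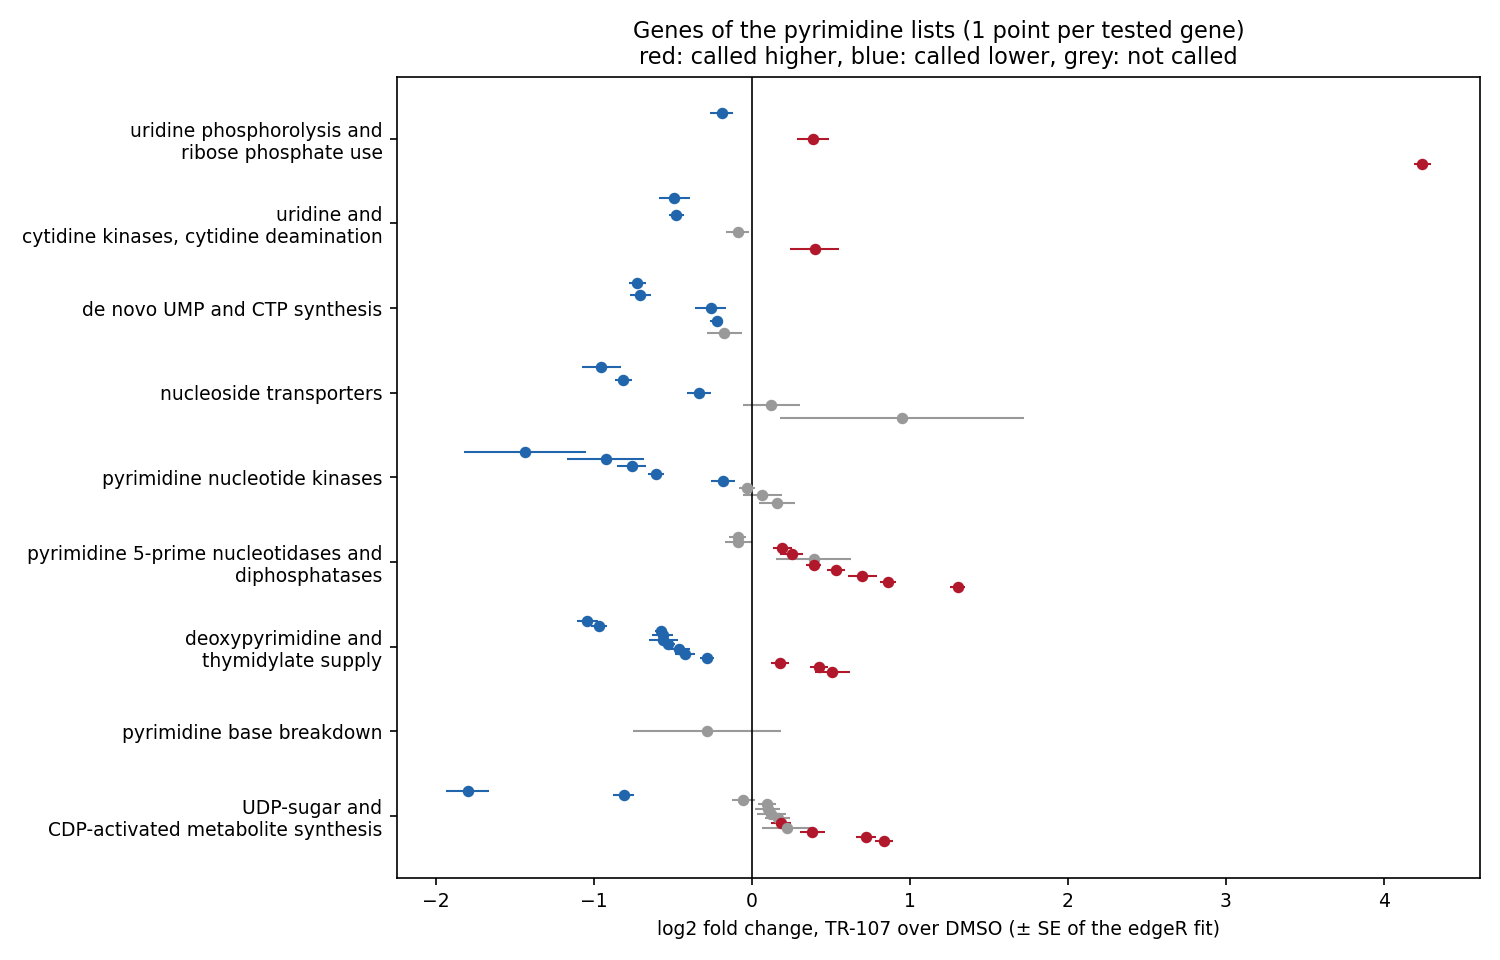
Log2 fold change (TR-107 over DMSO, ± SE) of each tested gene of 9 pyrimidine lists, 1 point per gene. UPP1 stands alone at 4.24; points of the nucleotidase list lie mostly right of 0 and those of the transporter, nucleotide kinase and deoxypyrimidine lists mostly left of it.

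Around these 10 genes stand 56 further genes of pyrimidine metabolism in 9 lists, of which 50 could be tested. Of these 50, 14 rose and 20 fell, and the median log2 fold change was -0.04, where the median of all genes tested was 0.01. The share that rose, 28%, was near the 29.2% of all genes tested, and the share that fell was 40%, against 28.6%. The plot of the pyrimidine lists shows each gene. Like the 10 genes, the lists were chosen with earlier results of these data known, so calls and adjusted p-values of list genes are a description. Where a list below has 0 calls in a direction by edgeR, the count was also 0 at an unadjusted p under 0.05, under DESeq2 and under limma-voom.

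Of 7 carriers of nucleosides across membranes 5 could be tested, of which 3 fell (60%, against 28.6% of all genes tested) and 0 rose (against 29.2%). The list's median log2 fold change was -0.34. SLC29A1, the main equilibrative nucleoside carrier of the plasma membrane, had 73.1, 72.4 and 82.0 CPM in TR-107, against 138, 135 and 127 CPM in DMSO (log2 fold change -0.81 ± 0.06, SE; adjusted p = 2.51e-16 by edgeR). SLC29A4 (-0.95) and SLC29A2 (-0.34) fell too, and SLC29A3, a lysosomal carrier, was not called (0.12). The exons of SLC29A2 (10.3%) and SLC29A3 (13.3%) share bases with other genes. The concentrative carriers SLC28A1 and SLC28A3 were at 0 in all libraries and SLC28A2, under 1 CPM in each, was not called (0.95).

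The kinases that turn UMP and CMP into UTP and CTP split into called and uncalled genes. Of 8 tested, 5 fell (62.5%, against 28.6% of all genes) and 0 rose (against 29.2%), and the list's median log2 fold change was -0.39. One of the 5, NME3, was not called under DESeq2 (-0.19) or without TR-107 replicate 1 or 3 or DMSO replicate 2 or 3 (-0.19 to -0.16), which leaves 4. CMPK1, which phosphorylates UMP and CMP, had 130.2, 141 and 129 CPM in TR-107 and 133, 136 and 140.2 CPM in DMSO, and its groups overlapped (log2 fold change -0.03 ± 0.05, SE; edgeR adjusted p = 0.603). NME1, a nucleoside diphosphate kinase, fell (-0.60 ± 0.05, SE; edgeR adjusted p = 5.72e-14), as did the mitochondrial relative NME4 (-0.76). NME2 was called lower (-0.93) though its groups overlapped, at 2.94 to 4.77 CPM in TR-107 and 4.39 to 9.26 CPM in DMSO. NME1 and NME2 share exons with a readthrough gene, and NME4 shares 15.6% of its exon bases with DECR2, so the counts of these genes are uncertain. CMPK2 (-1.44) was at 0.658 to 1.58 CPM in TR-107 and 2.80 to 3.21 CPM in DMSO.

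Of 10 nucleotidases and diphosphatases, which remove phosphate, 7 rose (70%, against 29.2% of all genes) and 0 fell (against 28.6%). The list's median log2 fold change was 0.39. One of the 7, ENTPD4, was not called without TR-107 replicate 2 or DMSO replicate 1 (0.15 each) or with library size alone (0.13). NT5E, the surface enzyme CD73 that frees nucleosides from extracellular monophosphates, had 318, 332 and 348 CPM in TR-107, against 145, 127 and 133 CPM in DMSO. Its log2 fold change was 1.30 ± 0.05 (SE; edgeR adjusted p = 1.81e-25). NT5C2, a cytosolic nucleotidase that prefers purine monophosphates, rose (0.86 ± 0.05, SE; edgeR adjusted p = 2.27e-18), as did ENTPD5 (0.70), ENTPD6 (0.53) and CANT1 (0.39), which cleave nucleoside diphosphates in the secretory pathway. NT5C3A, the nucleotidase known for pyrimidine monophosphates, was not called (31.5, 31.5 and 31.8 CPM in TR-107 and 33.6, 33.9 and 33.1 CPM in DMSO), nor were NT5C3B (-0.09) and NT5M (0.39). The exons of NT5C2 share 36.7% of their bases with CNNM2, and those of ENTPD5 (24.5%) and NT5C (60.7%) with other genes.

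Of 12 genes for thymidylate and deoxypyrimidine supply, 9 fell (75%, against 28.6% of all genes) and 3 rose (25%, near the 29.2% of all genes). The list's median log2 fold change was -0.50. TYMS, thymidylate synthase, was at 39.8, 40.8 and 37.5 CPM in TR-107, against 81.1, 83.0 and 78.8 CPM in DMSO (log2 fold change -1.04 ± 0.07, SE; adjusted p = 2.6e-17 by edgeR), while 46.6% of its exon bases are shared with ENOSF1 or TYMSOS. DCTPP1, which removes deoxycytidine triphosphate (-0.97), RRM2, a subunit of ribonucleotide reductase (-0.58), and the thymidine kinase TK1 (-0.53) fell. The exons of DCTPP1 share 42.1% of their bases with ZNF771, and those of RRM2 (20.2%) and TK2 (25%) with other genes. Those that rose were TK2, the mitochondrial thymidine kinase (0.51), RRM2B, the p53-induced reductase subunit (0.43), and DCTD, deoxycytidylate deaminase (0.18). DCTD was not called without TR-107 replicate 3 or DMSO replicate 3 (0.14 each) or with library size alone (0.11).

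The products of UPP1 have named next steps. PGM2, the phosphopentomutase that carries ribose 1-phosphate on to ribose 5-phosphate, had 51.6, 53.0 and 59.1 CPM in TR-107 and 62.0, 57.7 and 67.4 CPM in DMSO, with overlapping groups (log2 fold change -0.19 ± 0.07, SE; edgeR adjusted p = 0.0195). Its fall was not called without TR-107 replicate 1 (-0.15) or 2 (-0.17) or DMSO replicate 3 (-0.14). DPYD, which starts uracil breakdown, was at 0.931 to 1.35 CPM in TR-107 and 1.31 to 1.36 CPM in DMSO and was not called (edgeR adjusted p = 0.626). The later breakdown genes DPYS and UPB1 had 1 count and none in the 6 libraries together.

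**Figure D4:**
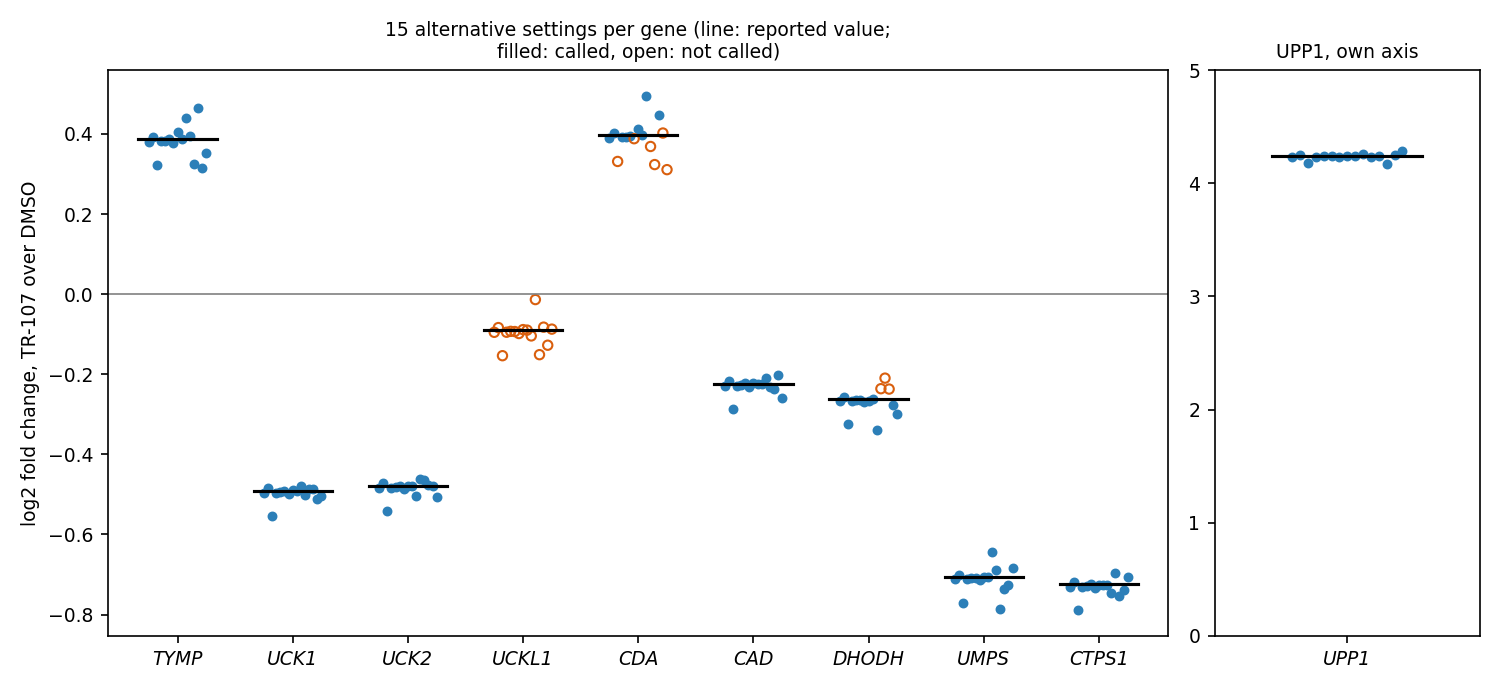
Log2 fold change (TR-107 over DMSO) of each of the 10 genes under 15 alternative settings (points; filled if called, open if not) beside the reported value (line), with UPP1 on an axis of its own. UPP1 stays between 4.17 and 4.28, and open points occur for UCKL1, CDA and DHODH.

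The plot of alternative settings shows how firm each call is. Of the 15 alternatives, UPP1, TYMP, UCK1, UCK2, CAD, UMPS and CTPS1 were called in all, UCKL1 in none, DHODH in all but 3 and CDA in all but 6.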

How the data were processed

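HCT116 RNA was counted in 6 libraries, 3 given TR-107 and 3 given DMSO. The deposited values are raw counts per NCBI Gene ID, 1 file per library, which the authors made with FastQC, Trimmomatic, HISAT2 and featureCounts on hg38, per the submitters' processing notes. Software versions, gene annotation, strandedness and treatment of multi-mapping reads (not given in the sources used here) could change the counts of overlapping, antisense or near-identical genes. Of 28395 IDs, 27745 matched a RefSeq symbol (GRCh38.p14).

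The main test was edgeR 4.0.16 (R 4.3.3): TMM, filterByExpr, robust quasi-likelihood fit, group alone, Benjamini-Hochberg adjustment over all 13767 tested genes at 0.05. The common biological coefficient of variation was 0.0739. The settings varied were upper-quartile or relative log expression factors, library size alone, no filter, at least 1 CPM in 3 libraries, a replicate block, DESeq2 1.42.0, limma-voom (limma 3.58.1), leaving out mitochondrially encoded genes, and leaving out each library. Exon lengths came from GENCODE 29 and promoter sequences from RefSeq. The genes and lists were chosen with earlier results of these data known. All 10 genes, the list genes and the 5 nearest profiles to UPP1 were named by a set rule; SCO2, TMCO1 and UCKL1-AS1, and the genes shown with sequence, were chosen after values were seen.

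In simulated counts for TR-107 against DMSO (13554 genes, of which 200 with a mean count of at least 50 were changed), 82.1%, 94% and 100% of 1.5-, 2- and 4-fold changes were called, and 0.127% of unchanged genes. Changes under 1.5-fold were not simulated, nor was a comparison in which as many genes change as were called here (57.8%). Replicates of a group differed by a chi-square of 3.92 to 6.05 per degree of freedom, so each counted as 1 sample. Python 3.11.15, pandas 2.3.3, NumPy 2.4.6 and matplotlib 3.10.9 were used.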

Additional observations from a re-analysis of the deposited data

How the results depend on the processing

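Over the 15 alternatives the 10 genes kept their direction, UPP1 between 4.17 and 4.28 on the log2 scale. CDA was not called with library size alone (0.33) or under DESeq2 (0.39), and leaving out 1 library gave 0.31 to 0.49 for CDA and -0.34 to -0.21 for DHODH. The kinase and deaminase list then had 0 genes higher (CDA) with library size alone and under DESeq2, and 0 to 1 with 1 library left out. The phosphorolysis list had 0 to 1 lower (PGM2) with 1 library left out, and the nucleotidase list 1 lower (NT5C3B) with library size alone, where ENTPD4 was not called higher. Among uncalled genes, leaving out 1 library gave -0.051 to 0.12 for NME7, -0.0054 to 0.15 for UGP2 and -0.12 to 0.0042 for UXS1.

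With the longest transcript as length, mean levels in TR-107 were 186 CPM per kb for UPP1, 14.4 for TYMP, 8.40 for UCK1, 22.0 for UCK2, 27.0 for UCKL1, 31.1 for CAD, 4.91 for DHODH, 7.79 for UMPS and 14.3 for CTPS1. In DMSO they were 9.80 CPM per kb for UPP1, 11.1 for TYMP, 11.8 for UCK1, 30.6 for UCK2, 28.8 for UCKL1, 36.3 for CAD, 5.88 for DHODH, 12.7 for UMPS and 23.6 for CTPS1. The lengths used, not the counts, differ there, and CDA has the same length either way.

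Same-numbered libraries did not deviate together (r = -0.03, -0.02 and 0.05 across genes). The labels do not say whether the numbers pair cultures, and these correlations cannot settle it. A replicate block called 7918 genes in place of 7956, and the same 3 higher and 6 lower among the 10. Depth limits the genes near 1 CPM, such as DPYD, and those below it, such as SLC28A2.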

Other observations

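Beyond nucleotides themselves, UTP and CTP activate sugars and lipid head groups. Of 12 tested genes of UDP-sugar and CDP-activated metabolite synthesis, 4 rose (33.3%, near the 29.2% of all genes tested) and 2 fell (16.7%, against 28.6%), and the list's median log2 fold change was 0.14. UAP1, which makes UDP-N-acetylglucosamine, had 133, 144 and 136 CPM in TR-107, against 74.6, 72.1 and 84.2 CPM in DMSO (log2 fold change 0.83 ± 0.06, SE; edgeR adjusted p = 1.6e-16). Its relative UAP1L1 went the other way, with 8.30, 8.05 and 6.10 CPM in TR-107, against 28.3, 27.8 and 21.8 CPM in DMSO (log2 fold change -1.80 ± 0.13, SE; edgeR adjusted p = 3.35e-15). The CDP-diacylglycerol synthases CDS1 (0.38) and CDS2 (0.19) rose. CDS2 was not called without TR-107 replicate 2 or DMSO replicate 1 (0.16 each) or with library size alone (0.12). PCYT2, which makes CDP-ethanolamine, fell (-0.81 ± 0.07, SE), and PCYT1A, the corresponding enzyme of phosphatidylcholine synthesis, was not called (0.12 ± 0.09, SE). The exons of PCYT2 share 28.1% of their bases with ANAPC11 or NPB.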
